A study of Sus scrofa with 8 samples.

Results

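Glycogen breakdown, glycolysis and lactate export were followed gene by gene in porcine biceps femoris, a limb muscle, after 5 days of intensive care with hydrocortisone or without it. Glycogen phosphorylase releases glucose units from stored glycogen, the glycolytic enzymes turn them into pyruvate with a gain of ATP, lactate dehydrogenase turns pyruvate into lactate, and monocarboxylate transporters carry lactate out of the fibre. Fast-twitch fibres rely most on this route, and several of its steps have a form of the enzyme that is typical of skeletal muscle. The members were 10 listed genes, PYGM, PFKM, ALDOA, TPI1, GPD1, GAPDH, PGAM2, ENO3, LDHA and SLC16A3, and every probe set whose annotation gives one of these as its only symbol was taken. They came to 16 of the 23999 probe sets and stood for 9 of the 6765 genes that probe sets with a single symbol name. ALDOA, which encodes the muscle aldolase, had no probe set under that single symbol and was not analysed here.

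The series holds 8 arrays of total RNA from female domestic piglets (Sus scrofa), 4 titled corticosteroid and 4 titled control, all labelled as acute quadriplegic myopathy, the limb weakness of intensive care patients that the pig model stands for. The corticosteroid piglets received hydrocortisone boluses over the 5 days of ventilation, and their protocol text describes 8 animals weighing 26.4 kg on average, with no endotoxin named. The control text describes 4 animals weighing 25.5 kg on average and adds Escherichia coli endotoxin at 36 µg/kg/h over 1 h, which the source label of the same arrays does not mention. Both groups were sedated with isoflurane plus morphine and ketamine boluses, ventilated through a tracheotomy, warmed, and given Ringeracetat, a glucose infusion, streptomycin and bensylpenicillin. The design text also names pancuronium bromide, a neuromuscular blocker, without saying which animals had it. Endotoxin, protocol, any processing batch and hydrocortisone therefore cannot be told apart in the comparison. The labels do not say that each array is a separate animal, so p-values measure only the spread between these samples.

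All values are log2 expression levels as deposited, so a difference of 1 is a doubling. Array medians ran from 5.87 to 5.97 and the highest value on an array from 14.49 to 14.59. Skeletal muscle as the source was borne out by 7 fast-fibre markers, whose mean level was 13.44 to 13.72 on the corticosteroid arrays and 12.43 to 13.52 on the control arrays. No marker of biceps femoris in particular was examined. The corticosteroid columns of the deposited table were in another row order than the control columns and were re-ordered by probe ID, which moves 9389 probe sets (39.1%), among them the lead probe sets of TPI1, PGAM2 and ENO3. A gene is described by its lead probe set, the one with the highest mean level over the 8 arrays. Precision is limited by the number of arrays: the median standard error (SE) of a difference was 0.22 over the 14361 probe sets tested.

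All 9 genes had a higher mean in corticosteroid muscle, where 52.8% of all probe sets tested did, and the median difference was 0.79 log2 units for the members and 0.02 for all probe sets tested. The differences ran from 0.07 for GAPDH to 1.54 for SLC16A3. None of the 9 passed limma's test at an adjusted p under 0.05, and 0% of all probe sets tested did, with a smallest adjusted p of 0.469. At an unadjusted p under 0.05 there were 5 members, PFKM, TPI1, GPD1, PGAM2 and SLC16A3, against 9.49% of all probe sets tested (4.78% higher and 4.71% lower in corticosteroid muscle). The groups did not overlap for 2 members, PGAM2 and SLC16A3, against 5.56% of all probe sets tested (3.05% with the corticosteroid arrays above). The members were measured on the same 8 arrays and are not independent of each other. Since these are bulk samples, fewer fibres of a type and less RNA per fibre cannot be told apart.

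**Figure D1:**
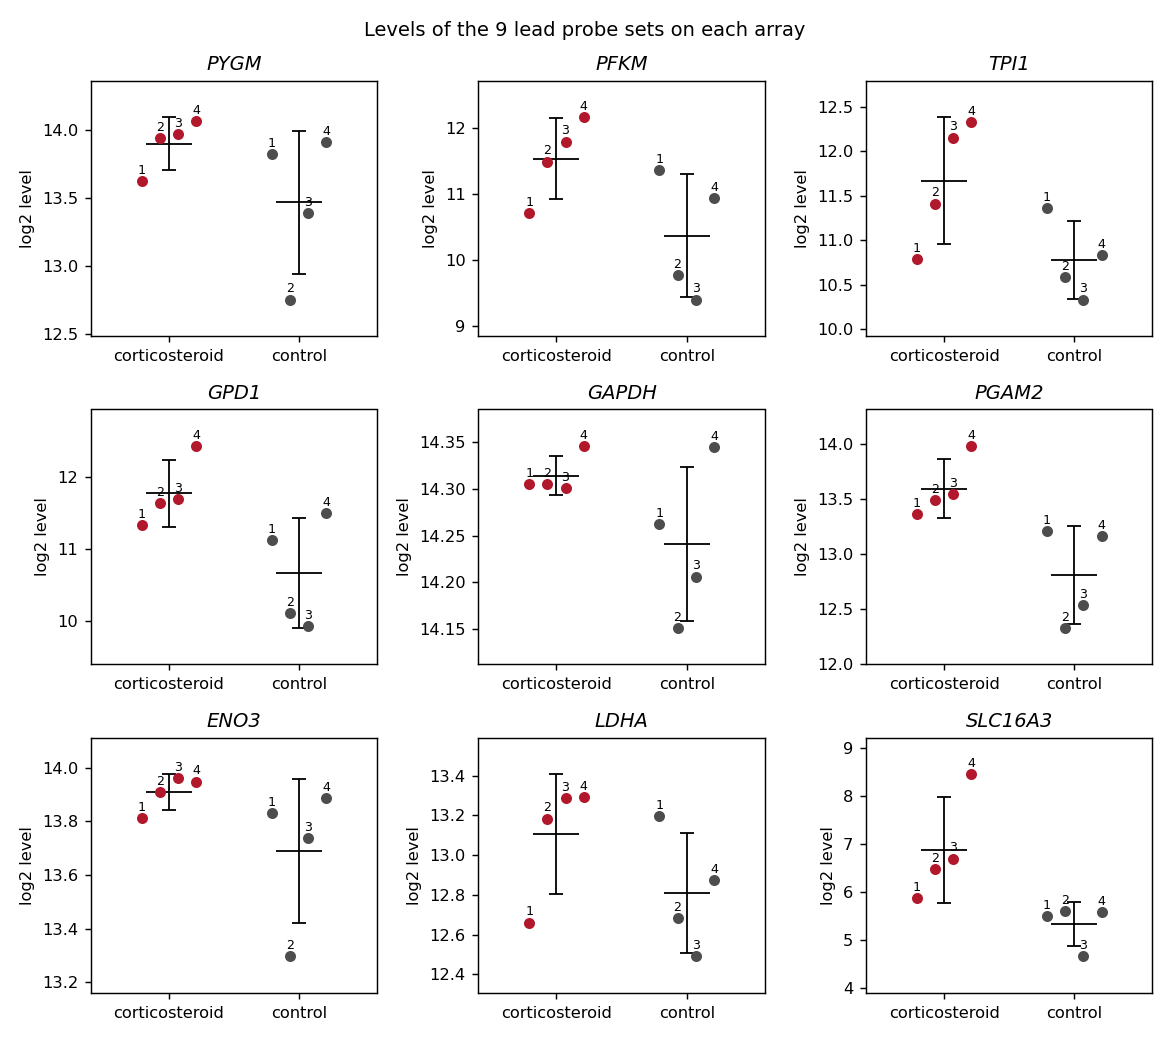
Log2 level of the lead probe set of each of the 9 genes on each array, with corticosteroid arrays left of control arrays; points carry the replicate number, the long bar is the group mean and the whiskers are 1 SD (n = 4 arrays each). Each panel has its own axis, which does not start at 0; PGAM2 and SLC16A3 have every corticosteroid array above every control array, and control arrays 2 and 3 lie low in most panels.

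The pathway starts with PYGM, the muscle glycogen phosphorylase, which frees glucose 1-phosphate from glycogen. Its lead probe set read 13.62, 13.94, 13.97 and 14.06 on the corticosteroid arrays, against 13.82, 12.75, 13.39 and 13.91 on the control arrays. The groups overlapped, since corticosteroid array 1 lay below control arrays 1 and 4, and control array 2 was the lowest of all. The mean was 13.90 ± 0.19 in corticosteroid muscle and 13.47 ± 0.53 in control muscle (SD over 4 arrays each). The difference of 0.43 (SE 0.23, limma adjusted p = 0.565) corresponds to 1.35-fold, and it was 0.19 without control array 2. PYGM has 3 further probe sets, and all of them had a higher mean in corticosteroid muscle as well. Their differences were 0.40 (SE 0.21), 0.67 (SE 0.30) and 0.82 (SE 0.35), in order of falling mean level, which was 13.68, 12.86 and 12.41. The last of these had the smallest p of the PYGM probe sets, with an adjusted p of 0.519.

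PFKM encodes the muscle subunit of phosphofructokinase, the enzyme of the committed step of glycolysis. The levels were 10.71, 11.49, 11.79 and 12.16 on the corticosteroid arrays, against 11.36, 9.77, 9.40 and 10.93 on the control arrays. Corticosteroid arrays 2, 3 and 4 lay above every control array, while corticosteroid array 1 lay below control arrays 1 and 4. Corticosteroid muscle averaged 11.53 ± 0.62 and control muscle 10.37 ± 0.93 (SD over 4 arrays each). The difference was 1.17 (SE 0.46, 2.25-fold, limma adjusted p = 0.482), so that it passed 0.05 only without adjustment.

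TPI1, triosephosphate isomerase, interconverts the 2 triose phosphates that aldolase makes. It read 10.79, 11.41, 12.16 and 12.33 on the corticosteroid arrays, against 11.37, 10.59, 10.33 and 10.83 on the control arrays. As for PFKM, corticosteroid arrays 2, 3 and 4 were above all controls, here with array 2 only just above control array 1. The means were 11.67 ± 0.71 in corticosteroid muscle and 10.78 ± 0.44 in control muscle (SD over 4 arrays each). They differed by 0.89 (SE 0.35, 1.86-fold, limma adjusted p = 0.482).

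GPD1, the cytosolic glycerol 3-phosphate dehydrogenase, leads off from the pathway at this point: it turns dihydroxyacetone phosphate into glycerol 3-phosphate and regenerates NAD+. Corticosteroid arrays had 11.33, 11.63, 11.69 and 12.42, against 11.13, 10.12, 9.93 and 11.50 on control arrays. Control array 4, the highest control, lay between corticosteroid arrays 1 and 2, and the other controls were below every corticosteroid array. The mean was 11.77 ± 0.46 in corticosteroid muscle and 10.67 ± 0.76 in control muscle (SD over 4 arrays each). This difference of 1.10 (SE 0.37, 2.14-fold) had an adjusted p of 0.479 in limma. Fat cells also express GPD1, and of the 6 adipocyte markers tested 4 had a higher mean in corticosteroid muscle, with a median difference of 0.05. The lower ones were FABP4, at -0.42 (SE 0.51), and RBP4, at -0.50 (SE 0.43). The list averaged 8.22, 9.02, 7.66 and 7.11 on the corticosteroid arrays, against 7.32, 7.71, 8.41 and 7.99 on the control arrays. LIPE, hormone-sensitive lipase, had the smallest p of that list, with a difference of 1.20 (SE 0.51, adjusted p = 0.512) and an unadjusted p under 0.05. It read 8.84, 9.68, 9.45 and 7.64 on the corticosteroid arrays, against 8.02, 6.65, 7.53 and 8.59 on the control arrays. Its difference was under that p without corticosteroid array 4 or control array 4 and not without any other single array. ADIPOQ, the adiponectin gene, differed by 0.02 (SE 1.07). Both were singled out after their values were seen. The part of fat cells in the GPD1 difference was not tested.

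GAPDH, glyceraldehyde 3-phosphate dehydrogenase, carries out the step that reduces NAD+ and is often used as a reference gene. Its lead probe set read 14.30, 14.31, 14.30 and 14.35 on the corticosteroid arrays, against 14.26, 14.15, 14.21 and 14.35 on the control arrays. The groups overlapped through control array 4, which was level with the highest corticosteroid array. The mean was 14.31 ± 0.02 in corticosteroid muscle and 14.24 ± 0.08 in control muscle (SD over 4 arrays each), and the difference was 0.07 (SE 0.07, limma adjusted p = 0.708) with a 95% interval of -0.08 to 0.23. It was 0.04 without control array 2. These levels lay on average 0.27 below the highest value on the array. Whether differences are compressed so near the top of the scale was not tested.

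The 4 other GAPDH probe sets did not share one direction. In order of falling mean level, the first differed by -0.00 (SE 0.06, adjusted p = 0.989) and the second by -0.28 (SE 0.22, adjusted p = 0.667). The third had a difference of 0.61 (SE 0.24, adjusted p = 0.482) and an unadjusted p under 0.05. The last was too dim for the main fit and gave -0.15 (SE 0.09, adjusted p = 0.609) when no filter was set. Which transcripts these probe sets detect was not tested, so GAPDH is given by its lead probe set with that disagreement.

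**Figure D2:**
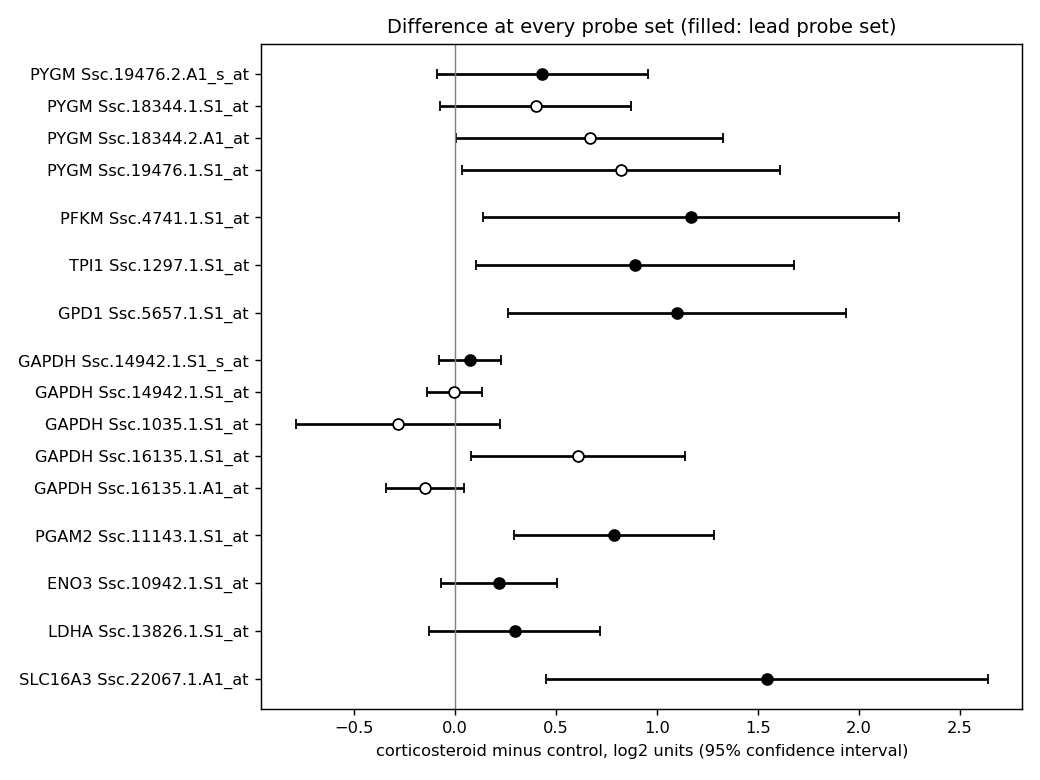
Corticosteroid minus control difference in log2 units (horizontal axis) for each of the 16 probe sets of the 9 genes, in pathway order down the page, with 95% confidence intervals from limma; filled points are lead probe sets, and rows carry the array's probe IDs. The 4 PYGM probe sets all lie right of 0, whereas the 5 GAPDH probe sets lie on both sides of it.

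PGAM2, the muscle phosphoglycerate mutase, moves the phosphate group of 3-phosphoglycerate to the neighbouring carbon. It read 13.36, 13.49, 13.54 and 13.98 on the corticosteroid arrays, against 13.21, 12.32, 12.53 and 13.16 on the control arrays. Every corticosteroid array was above every control array, with the closest pair being corticosteroid array 1 and control array 1. The mean was 13.59 ± 0.27 in corticosteroid muscle and 12.81 ± 0.45 in control muscle (SD over 4 arrays each). The difference was 0.79 (SE 0.22, 1.73-fold, limma adjusted p = 0.469), the smallest p among the members.

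ENO3, the muscle enolase, makes phosphoenolpyruvate. The corticosteroid arrays had 13.81, 13.91, 13.96 and 13.95, against 13.83, 13.30, 13.74 and 13.89 on the control arrays. All corticosteroid arrays and 3 of 4 controls were close together, and control array 2 lay apart below them. The mean was 13.91 ± 0.07 in corticosteroid muscle and 13.69 ± 0.27 in control muscle (SD over 4 arrays each). The difference of 0.22 (SE 0.13, 1.16-fold, limma adjusted p = 0.585) was 0.09 without control array 2.

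LDHA encodes the lactate dehydrogenase subunit typical of fast muscle, which favours lactate formation from pyruvate. Levels were 12.66, 13.18, 13.29 and 13.29 on the corticosteroid arrays, against 13.20, 12.68, 12.49 and 12.87 on the control arrays. The groups overlapped at both ends, with corticosteroid array 1 among the low controls and control array 1 among the high corticosteroid arrays. The mean was 13.11 ± 0.30 in corticosteroid muscle and 12.81 ± 0.30 in control muscle (SD over 4 arrays each). The difference was 0.29 (SE 0.19, 1.23-fold, limma adjusted p = 0.609), 0.44 without corticosteroid array 1 and 0.19 without control array 3.

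SLC16A3 encodes MCT4, the monocarboxylate transporter through which glycolytic fibres export lactate. It read 5.88, 6.48, 6.69 and 8.45 on the corticosteroid arrays, against 5.49, 5.60, 4.65 and 5.58 on the control arrays. The groups did not overlap, and corticosteroid array 4 stood far above the other 3. The mean was 6.88 ± 1.11 in corticosteroid muscle and 5.33 ± 0.45 in control muscle (SD over 4 arrays each), and the control mean lay next to the level of 5.27 below which probe sets were not tested. The difference was 1.54 (SE 0.49, 2.92-fold, limma adjusted p = 0.479) with a 95% interval of 0.45 to 2.64. It was 1.02 without corticosteroid array 4, and 1.26 with 16 added to the linear values before log2. At a stricter filter, the 60th percentile of mean level, the probe set was not tested.

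Leaving out single arrays kept all 9 differences above 0. PGAM2, GPD1 and SLC16A3 had an unadjusted limma p under 0.05 in all 8 such fits, PFKM and TPI1 in 3 each, LDHA in 2, PYGM in 1. The number of members under that p was 3 without any one of corticosteroid arrays 3 or 4 or control arrays 2 or 3, where 7.14%, 6.21%, 8.7% and 6.28% of all probe sets tested were under it. It was 6 without corticosteroid array 1 or control array 1, where that share was 11.6% and 12.4%. The number whose groups did not overlap was 7 without corticosteroid array 1, against 11.9% of all probe sets tested, and 4 without control array 4, against 10%. Groups of unequal and smaller size separate more often, and that share was 7.3% to 12.6% over the 8 fits. With corticosteroid array 4 and control array 2 both left out, 2 members remained under an unadjusted p of 0.05, PGAM2 and SLC16A3, against 6.45% of all probe sets tested, and the median difference was 0.50. Array weights in limma gave 3 members under that p, against 9.29% of all probe sets tested. In the deposited row order the differences would have been -0.87 for TPI1, -8.38 for PGAM2 and -5.18 for ENO3, so the direction of these 3 rests on the re-ordering.

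**Figure D3:**
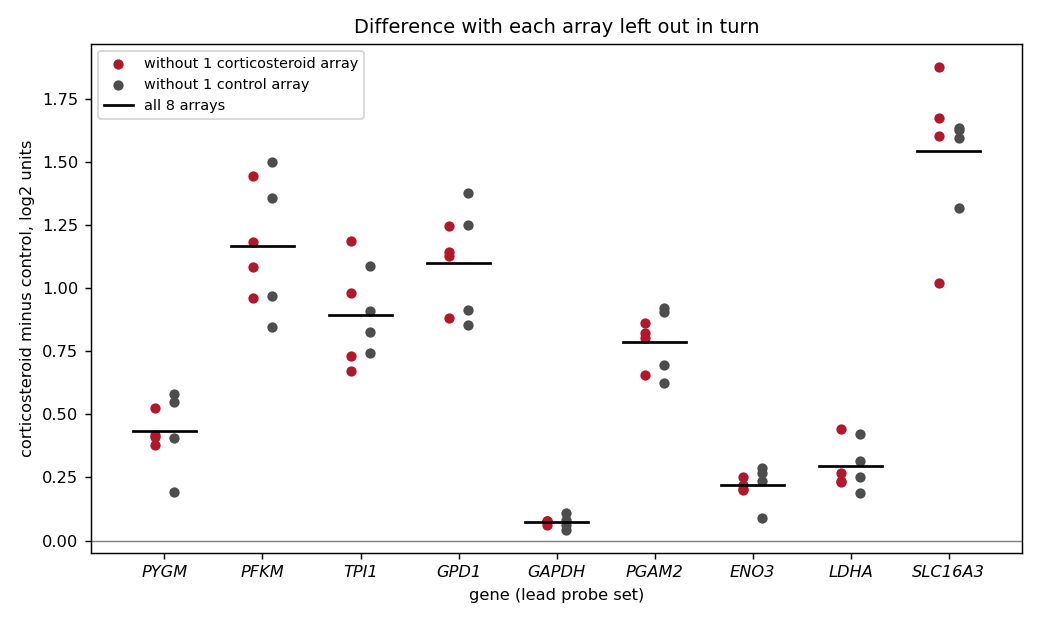
Corticosteroid minus control difference in log2 units (vertical axis) of the 9 lead probe sets with each array left out in turn; each point leaves out 1 array of the group its colour names, and the bar is the value from all 8 arrays. All points lie above 0, and the lowest SLC16A3 point, 1.02, leaves out corticosteroid array 4.

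The arrays differed within each group as well. With each gene centred on its own mean, the 9 members averaged -0.11, 0.27, 0.44 and 0.84 log2 units on corticosteroid arrays 1 to 4, and 0.03, -0.68, -0.75 and -0.04 on control arrays 1 to 4. Corticosteroid arrays 2, 3 and 4 had all 9 members above their own mean, control arrays 2 and 3 had 0, and corticosteroid array 1 had 4, as many as control array 4 and fewer than control array 1 with 6. Corticosteroid array 4 was the highest array for 8 of 9 members, and the lowest array was control 3 for 5 members and control 2 for 4. The low side of the comparison thus rested on control arrays 2 and 3, and corticosteroid array 1 lay just below the other controls.

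Fibre-type markers shared this ordering in part. The 7 fast-fibre markers on the array (of 12 listed) all had a higher mean in corticosteroid muscle, with a median difference of 0.43. At an unadjusted p under 0.05 there were 2, TNNC2 and TNNT3, which encode fast troponins, against 9.49% of all probe sets tested. Without control array 2, 6 were higher and 1 lower, with a median of 0.25. The split was also 6 to 1 without control array 3 or corticosteroid array 2 or 3. The 7 markers averaged 13.44, 13.60, 13.59 and 13.72 on the corticosteroid arrays, against 13.52, 12.43, 13.05 and 13.46 on the control arrays. Control arrays 2 and 3 were thus lowest here too. The 9 slow-fibre markers (of 11 listed) all had a lower mean in corticosteroid muscle, with a median difference of -0.98. At an unadjusted p under 0.05 there were 6, against 9.49% of all probe sets tested. With single arrays left out all 9 stayed lower. Between 4 and 7 were then under that p, against 6.21% to 12.4% of all probe sets tested. The 9 markers averaged 9.81, 9.65, 10.23 and 9.58 on the corticosteroid arrays, against 10.70, 11.47, 11.30 and 10.01 on the control arrays. Control arrays 2 and 3 were highest here, whereas corticosteroid array 3, which was high for the members, lay above control array 4. None of these markers passed the adjusted test, and their part in the members' differences was not tested.

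**Figure D4:**
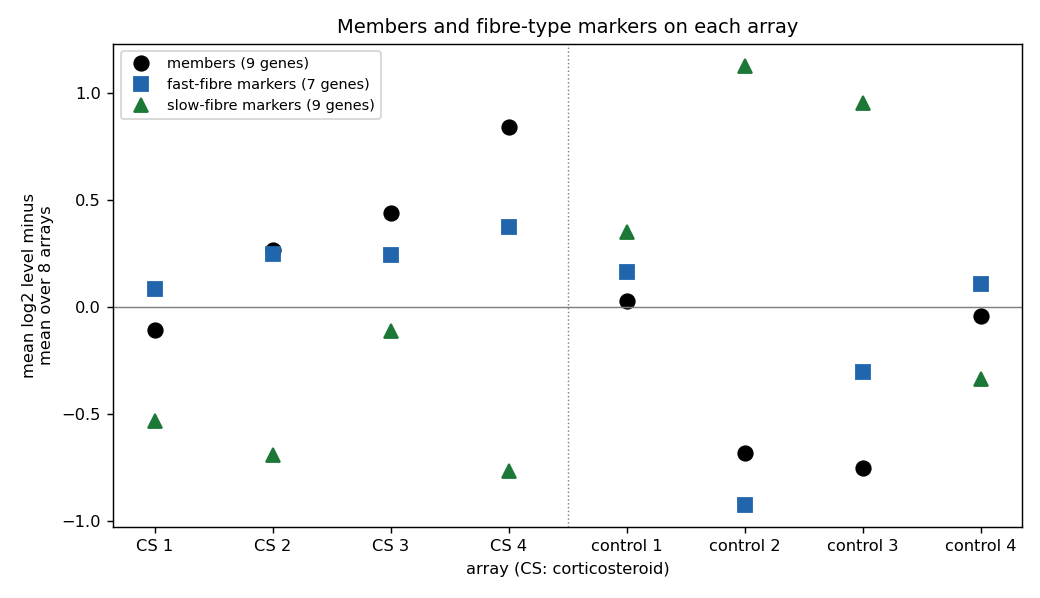
Mean log2 level of the 9 members, 7 fast-fibre markers and 9 slow-fibre markers on each array, each minus its own mean over the 8 arrays (vertical axis, log2 units), with corticosteroid arrays left of control arrays. Members and fast-fibre markers are both lowest on control arrays 2 and 3, where slow-fibre markers are highest.

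Markers of other cells were measured beside these. Macrophage markers (7 of 11 listed on the array) averaged 5.85 to 6.67 on the corticosteroid arrays and 6.33 to 8.02 on the control arrays, with the top value on control array 2. All 6 that were tested had a lower mean in corticosteroid muscle, with a median difference of -0.48. Without control array 2 there were 2 higher and 4 lower, with a median of -0.11. Erythroid markers (4 of 9) averaged 5.20 to 5.73 on corticosteroid arrays and 5.46 to 7.02 on control arrays, with the top value on control array 3. Adipocyte markers (6 of 10) averaged 7.11 to 9.02 on corticosteroid arrays and 7.32 to 8.41 on control arrays. Endothelial markers (8 of 8) averaged 7.47 to 7.69 on corticosteroid arrays and 7.54 to 7.76 on control arrays. Fibroblast markers (6 of 8) averaged 8.70 to 9.42 on corticosteroid arrays and 8.42 to 9.72 on control arrays. At an unadjusted p under 0.05 there were 0 of 6 macrophage, 1 of 2 erythroid and 1 of 6 adipocyte markers tested. Of endothelial markers 0 of 7 were under it and of fibroblast markers 1 of 6, against 9.49% of all probe sets tested. Of the 2 arrays that were low for the members, control array 2 thus also had the highest macrophage and the highest fibroblast level and control array 3 the highest erythroid level, and their part in the result was not tested.

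For 4 members a related gene for the same reaction, or for GPD1 its mitochondrial partner in the glycerol phosphate shuttle, was on the array, and the difference between both changes was tested per array with an exact two-sided permutation test over 70 splits. PFKM differed by 0.96 log2 units more between the groups than PFKP, the platelet-type phosphofructokinase whose own difference was 0.21 (exact p = 0.2, adjusted over the 4 pairs 0.495). LDHA differed by 0.66 more than LDHB, the heart-type subunit, which had a difference of -0.37 (exact p = 0.286, adjusted 0.495). GPD1 differed by 0.78 more than GPD2, at 0.32 (exact p = 0.371, adjusted 0.495). ENO3 differed by 0.54 more than ENO1, the widely expressed enolase, at -0.32 (exact p = 0.83, the largest of the 4 after adjustment too). With 4 arrays a group the smallest exact p is 0.0286, and 1 pair alone can reach no less than 0.114 after adjustment over 4 pairs, so these contrasts say little on whether the muscle form and its relative differ. The differences of the relatives also varied with single arrays left out, from 0.06 to 0.38 for PFKP, from -0.56 to -0.09 for LDHB and from -0.06 to 0.66 for GPD2.

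The enolase pair turned on 1 array. ENO1 read 9.63, 9.47, 9.63 and 9.94 on the corticosteroid arrays, against 9.36, 11.70, 9.60 and 9.27 on the control arrays. Control array 2 stood far above all others, and without it the difference of ENO1 was 0.25 and that of the pair -0.17.

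Of 16 other glycolytic genes tested (19 of 30 listed were on the array), 11 had a higher and 5 a lower mean in corticosteroid muscle, with a median of 0.21 and 0 at an unadjusted p under 0.05. GPI, which converts glucose 6-phosphate to fructose 6-phosphate, had a difference of 0.42 (SE 0.22, adjusted p = 0.552). FBP2, the muscle fructose bisphosphatase that opposes phosphofructokinase, had one of 1.17 (SE 0.63, adjusted p = 0.562). FBP2 read 10.05, 10.89, 9.93 and 11.06 on the corticosteroid arrays, against 10.56, 7.77, 8.44 and 10.48 on the control arrays, so control arrays 2 and 3 were again the low ones. PKM, pyruvate kinase, differed by 0.38 (SE 0.24, adjusted p = 0.601), ADPGK, an ADP-dependent glucokinase, by -0.33 (SE 0.21, adjusted p = 0.607), and ALDOC, the brain-type aldolase, by 0.21 (SE 0.35). Without control array 2 the difference was 0.65 for FBP2, 0.19 for PKM and -0.13 for ADPGK, GPI was at 0.25 without corticosteroid array 4, and ALDOC ran from -0.12 to 0.42 over the arrays left out.

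Of 8 tested genes for glucose uptake and phosphorylation (9 of 12 listed were on the array), 2 had a higher and 6 a lower mean, with a median of -0.33 and 0 at an unadjusted p under 0.05. Without control array 2 there were 4 higher and 4 lower, with a median of -0.05. The mean level of the list on control array 2 was 7.95, against 6.63 to 7.27 on the other controls. The higher ones were the glucose transporter genes SLC2A12, at 0.78 (SE 0.38, adjusted p = 0.543), and SLC2A4, at 0.53 (SE 0.29, adjusted p = 0.569). SLC2A4 encodes GLUT4, the insulin-responsive transporter of muscle, and read 6.63, 6.02, 6.65 and 6.78 on the corticosteroid arrays, against 6.81, 5.95, 5.75 and 5.47 on the control arrays. The groups overlapped through control array 1, which was the highest of all. The other 2 SLC2A4 probe sets had differences of -0.18 (SE 0.19) and 0.04 (SE 0.14), and the mean of the 3 gave 0.13. With single arrays left out the lead probe set ran from 0.35 to 0.80. HK1, a hexokinase, had a difference of -0.69 (SE 0.41, adjusted p = 0.589), which was -0.22 without control array 2, where it read 9.52. SLC2A8 differed by -0.29 (SE 0.19, adjusted p = 0.614), and by -0.16 without control array 2.

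In glycogen handling, 5 of 11 tested genes (13 of 27 listed were on the array) had a higher mean and 6 a lower one, with a median of -0.03 and 0 at an unadjusted p under 0.05. PGM1, phosphoglucomutase, which takes up the product of PYGM, differed by 0.45 (SE 0.22, adjusted p = 0.541). It read 12.70, 13.08, 13.13 and 13.20 on the corticosteroid arrays, against 13.00, 12.02, 12.39 and 12.88 on the control arrays, and the groups overlapped through corticosteroid array 1. PHKB, a subunit of the kinase that activates glycogen phosphorylase, differed by 0.50 (SE 0.33, adjusted p = 0.615). STBD1, a glycogen-binding protein, differed by 0.58 (SE 0.43, adjusted p = 0.654), and PYGL, the liver-type phosphorylase, by -0.43 (SE 0.35, adjusted p = 0.673). Without control array 2 the difference was 0.27 for PGM1, 0.19 for PHKB and -0.05 for PYGL, and STBD1 ran from 0.30 without corticosteroid array 4 to 0.92 without corticosteroid array 1. The list had 4 to 6 genes with a higher mean over the 8 fits that leave out 1 array.

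Where pyruvate enters the mitochondrion, 7 of 10 tested genes (of 15 listed) had a higher and 3 a lower mean, with a median of 0.15 and 0 at an unadjusted p under 0.05. MPC1, a subunit of the mitochondrial pyruvate carrier, read 11.66, 11.65, 11.59 and 11.71 on the corticosteroid arrays, against 11.46, 11.14, 11.45 and 11.59 on the control arrays. Its groups did not overlap, though corticosteroid array 3 and control array 4 lay side by side, and the difference was 0.24 (SE 0.13, adjusted p = 0.572). PC, pyruvate carboxylase, differed by 0.65 (SE 0.40, adjusted p = 0.594), and by 0.28 without corticosteroid array 2. PDP2, a phosphatase that activates pyruvate dehydrogenase, differed by 0.25 (SE 0.18, adjusted p = 0.649), and DLD, the dihydrolipoamide dehydrogenase subunit, by 0.21 (SE 0.18, adjusted p = 0.678). Without control array 2 MPC1 was at 0.15 and 5 of the 10 genes had a higher mean, and without control array 3 DLD was at 0.10 and PDP2 at 0.42. Over these 4 lists the smallest adjusted p was 0.541.

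**Figure D5:**
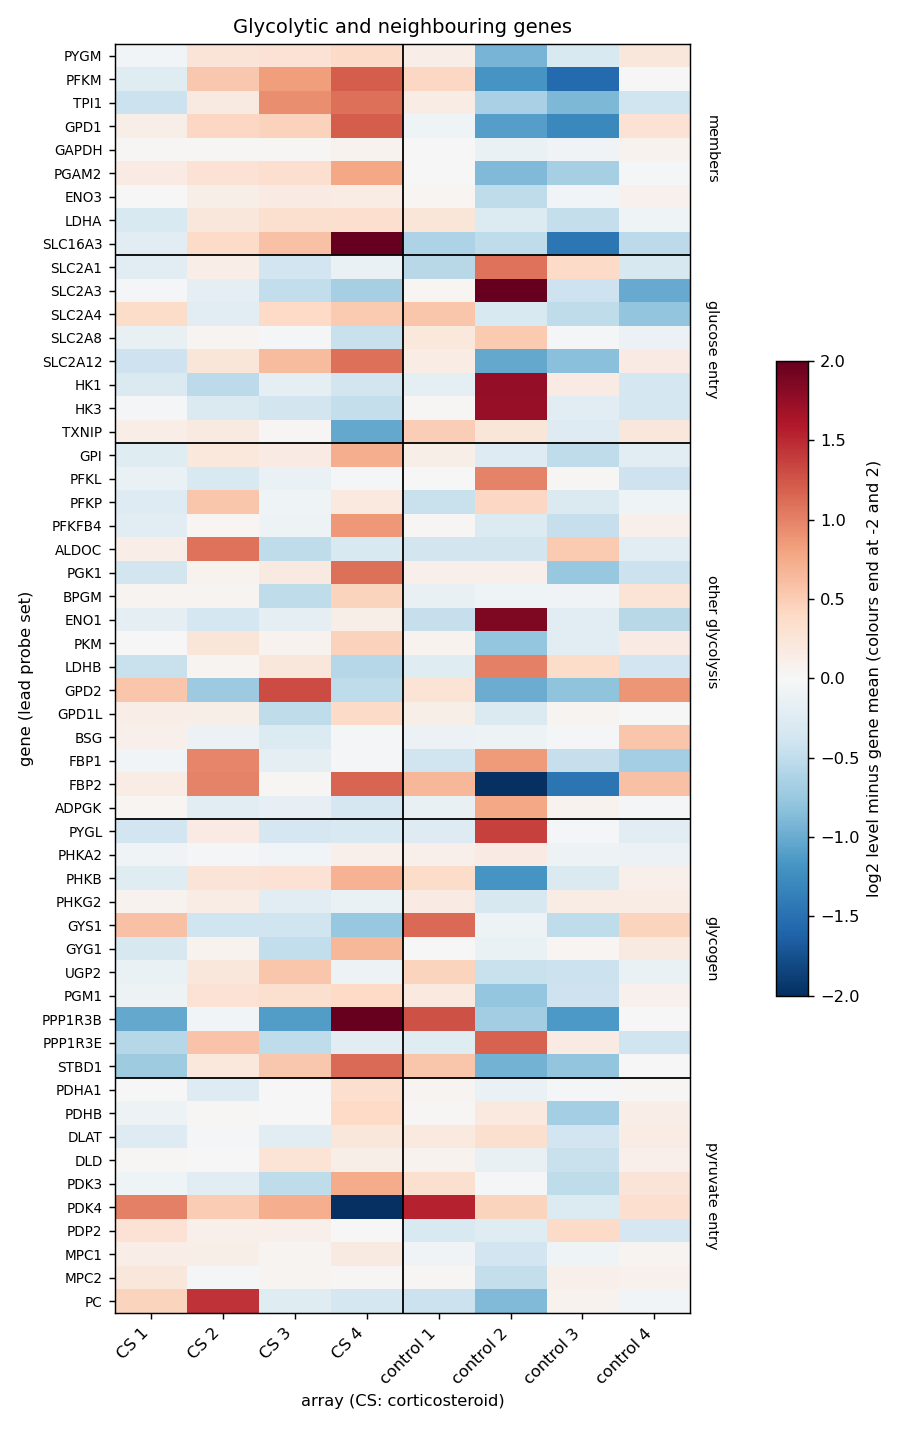
Log2 level minus the gene's own mean over 8 arrays (colour, ending at -2 and 2) for the members and the tested genes of 4 neighbouring lists (rows) on each array (columns, corticosteroid left of control). Members are mostly red on corticosteroid arrays 2 to 4 and blue on control arrays 2 and 3, whereas HK1, ENO1 and PYGL are red on control array 2.

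The genes outside these lists whose centred levels followed the members' mean profile most closely were named by mean absolute distance over the 8 arrays, among 5309 genes with a median distance of 0.458. They were TPM1, a tropomyosin of the thin filament, at 0.113, CXCL12, a chemokine, at 0.124, KAT8, a histone acetyltransferase, at 0.129, MTG1, a mitochondrial GTPase, at 0.131, and ARAF, a RAF kinase, at 0.131. TPM1 read 13.32, 13.61, 13.75 and 13.74 on the corticosteroid arrays, against 13.49, 12.59, 12.68 and 13.30 on the control arrays, with control arrays 2 and 3 low as for the members. The members' own distances ran from 0.0929 for PGAM2 to 0.485 for SLC16A3. The 5 genes lay closer to the mean profile than every member except PGAM2. They were picked as the smallest of 5309 distances and the members were not, so nothing about the members follows from that. The 5 differences ran from 0.59 for TPM1 to 0.85 for KAT8, and since they were picked for likeness to a profile that differs between the groups, these are a description only. They rest on the lead probe sets: averaged over its probe sets TPM1 differed by 0.12 and CXCL12 by 0.34, and CXCL12 was at 0.48 without corticosteroid array 4.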

How the data were processed

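Expression in 8 muscle samples was measured on Affymetrix porcine arrays from 3 µg of total RNA each. The authors deposited log2 values per probe set in 1 table; MAS5 is the one tool in the submitters' processing notes, and how arrays were scaled to each other is not given there or in the labels. The corticosteroid columns were re-assigned to probe IDs sorted as text with full stops ignored. In the 9389 probe sets this moves, the correlation of group means was 0.989 afterwards and 0.0997 as deposited. It was 0.989 in the other 14610. Genes were named from the platform table: 10069 probe sets have 1 symbol, 198 several and 13732 none.

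Groups, from the sample titles, were compared in R 4.3.3 with limma 3.58.1 (lmFit, eBayes with trend), which was tested on simulated data. The 64 reporter probe sets were left out. Probe sets with a mean above the 40th percentile (5.27) were tested, with Benjamini-Hochberg adjustment over all 14361. Named genes are all members, related genes of the same step, the 4 of smallest p per list and the 5 most alike. Members and lists were chosen with earlier results of these data known. Alternatives covered scaling, filters, the moderation settings, array weights, row order and left-out arrays. Same-numbered arrays did not deviate together (correlations -0.25 to 0.11), so replicate numbers were not taken as pairs.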

Additional observations from a re-analysis of the deposited data

Results flagged for a closer look

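In 9 of 90 groups of 4 arrays examined, 1 array lay far from the other 3 by Dixon's ratio, where chance flags about 5% of independent groups. These groups share the same 8 arrays, and some belong to genes picked for their values or profile. The count therefore cannot be judged against that rate. Among the members, GAPDH read 14.35 on corticosteroid array 4, with the other 3 at 14.30 to 14.31. LDHA read 12.66 on corticosteroid array 1, below 13.18 to 13.29 on the others. SLC16A3 read 4.65 on control array 3, below 5.49 to 5.60 on the others. In the neighbouring lists, ENO1 read 11.70 on control array 2, above 9.27 to 9.60 on the other controls. PYGL read 7.31 on corticosteroid array 2, above 6.77 to 6.84, and 8.50 on control array 2, above 6.89 to 7.11. PDP2 read 6.22 on control array 3, above 5.51 to 5.61. PDK4, chosen after its values were seen, read 7.27 on corticosteroid array 4, below 12.09 to 12.59 on the others. MTG1 read 9.19 on corticosteroid array 4, above 8.40 to 8.53. Corticosteroid array 4 accounts for 3 of these, and control arrays 2 and 3 for 2 each.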

How the results depend on the processing

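The member differences stayed above 0 and no member passed the adjusted test under any alternative other than the rows as deposited. With the rows as deposited, 5454 of the 14361 probe sets tested and 5 of 9 members passed the adjusted test. The groups then did not overlap for 4 members, against 38% of all probe sets tested. The median difference was 0.29 for the members and 0.02 for all probe sets tested. The values then turned round for TPI1 (-0.87), PGAM2 (-8.38), ENO3 (-5.18), ENO1 (1.15), LDHB (1.48), FBP2 (-3.59), ADPGK (6.53), PHKB (-1.40), DLD (-5.21), CXCL12 (-2.04), MTG1 (-3.97), ARAF (-3.53) and the pairs ENO3/ENO1 (-6.32) and LDHA/LDHB (-1.18); these are probe sets that the re-ordering moves. The count of members under an unadjusted p of 0.05 was 5, and it was 3 with array weights, 3 of 6 in unmoved rows only, 2 without control array 2 and corticosteroid array 4, and 3 to 6 with single arrays left out; of all probe sets tested 9.29%, 9.56%, 6.45% and 6.21% to 12.4% were under it in those settings. With the replicate number as a block, which the labels do not state to be a pairing, it was 4, against 9.28% of all probe sets tested. Members not overlapping numbered 2, and 1 of 8 with the 60th percentile filter, 1 of 6 in unmoved rows, and 2 to 7 with single arrays left out, against 5.67%, 5.43% and 7.3% to 12.6% of all probe sets tested; the first 2 of these test fewer genes. Single arrays left out gave a median difference of 0.63 to 0.92 and 0 to 1 probe sets past the adjusted test, the 1 without control array 3. They also gave ENO1 -0.56 to 0.25, ALDOC -0.12 to 0.42, GPD2 -0.064 to 0.66, PDK4 -1.54 to 0.24, ADIPOQ -0.80 to 0.67 and the pair ENO3/ENO1 -0.17 to 0.84. Without control array 2 and corticosteroid array 4, ENO1 was 0.16, LDHB 0.035 and PDK4 0.22. The causes were not tested beyond the row order. With 4 arrays a group and a median SE of 0.22, precision was low. In the main fit the largest member difference, 1.54 for SLC16A3, had an SE of 0.49 and did not pass the adjusted test. PGAM2, the member of smallest p, at 0.79 (SE 0.22), did not pass it either.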

Other observations

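PDK4, the kinase that switches off pyruvate dehydrogenase and a known glucocorticoid target, was singled out after its values were seen. It read 12.59, 12.09, 12.30 and 7.27 on the corticosteroid arrays, against 13.11, 12.03, 11.30 and 11.92 on the control arrays. Corticosteroid array 4 thus had by far the lowest PDK4 and the highest level of 8 of the 9 members. The group difference was -1.03 (SE 1.06, limma adjusted p = 0.738), and 0.24 without that array.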
